A study of Mus musculus with 6 samples.

Results

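The long intergenic non-coding RNAs (lincRNAs) that were expressed in mouse AML cells were compared between *WT Phf6,RE9a* and *VC Phf6,RE9a* leukemias. The genes were chosen by their mean read counts, which had to be at least 50 in one of the groups, among the rows to which the deposited table gave the biotype lincRNA. Of 5559 lincRNA rows among 54532 genes, 164 met this rule, and 4039 rows had no count in any library. Both groups came from male mice that carried a floxed *Phf6* allele, an X-linked gene for a chromatin-associated plant homeodomain protein. The *VC Phf6,RE9a* cells also carried Vav1-Cre, a recombinase expressed in hematopoietic cells, which deletes the floxed allele, and the *WT Phf6,RE9a* cells carried no Cre. Fetal liver progenitors of either genotype were transduced with a GFP retrovirus for RUNX1-ETO9a (RE9a), a truncated form of the AML fusion protein RUNX1-ETO, and serially transplanted into mice. RNA of the sorted GFP+ bone marrow cells was sequenced in 3 libraries per group, replicates 1, 2 and 3 of *WT Phf6,RE9a* and replicates 11, 12 and 13 of *VC Phf6,RE9a*, called WT 1 to WT 3 and VC 11 to VC 13.

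LincRNAs are transcripts without a long reading frame, encoded apart from protein-coding genes. They are mostly spliced and often act in the nucleus, as scaffolds of nuclear bodies, as hosts of small RNAs in their introns, or near the gene from which they are transcribed. In blood cells, several are known to be lineage-restricted or induced by inflammatory signals.

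Total counts ran from 15675358 to 16817994 per library. *Phf6* itself was lower in all 3 *VC Phf6,RE9a* libraries (log2 fold change -1.66 with a standard error, SE, of 0.13, adjusted p = 9.32e-05 by edgeR's quasi-likelihood test). All 6 markers listed for leukemic myeloid cells, not all of them of progenitors (*Ptprc*, *Mpo*, *Itgam*, *Kit*, *Cd34* and *Cd33*), were read in every library. *Itgam* had as few as 17 counts. Of these markers, *Kit*, *Cd34* and *Cd33* fell in *VC Phf6,RE9a* cells (log2 fold changes of -3.15, -4.63 and -2.70) and *Mpo* and *Itgam* rose (1.88 and 2.31). *Ptprc* did not pass (0.86, adjusted p = 0.167 by edgeR). The summed level of the 6 markers was 2235 to 3635 against 378 to 601 CPM. *Kit* alone had a mean of 2420 against 273 CPM, so the sum mostly follows this gene. Among the markers of other cell types, 4 of 5 genes of mast cells and basophils fell with *Phf6* loss (summed level 6937 to 9869 CPM against 1139 to 1605 CPM). *Ms4a2* did not pass (mean 1180 against 1076 CPM, adjusted p = 0.519 by edgeR). *Cpa3* had a mean of 6749 against 274 CPM. The sum thus mostly follows *Cpa3* in *WT Phf6,RE9a* cells and *Ms4a2* in *VC Phf6,RE9a* cells. Of the erythroid genes, 4 of 4 rose (410.5 to 590.3 against 2031 to 2271 CPM). CPM stands for counts scaled to a library size set by TMM, in parts per 1000000. Of 5 B cell genes, 4 were tested and all 4 were higher, at 0.611 to 1.104 against 8.50 to 24.6 CPM. The 5 T cell genes summed to at most 2.72 CPM. All 5 macrophage genes were tested and 1 rose (summed level 10.4 to 18.8 against 24.9 to 31.2 CPM). Of 5 genes of stroma and endothelium, 2 were tested and 1 rose (1.49 to 3.81 against 7.01 to 8.68 CPM). The part of these shifts in the lincRNA differences below was not tested. In sorted bulk cells, fewer cells of a type and less RNA per cell cannot be told apart.

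The expressed lincRNAs held 0.807 ± 0.068% of the counts in *WT Phf6,RE9a* libraries against 0.818 ± 0.048% in *VC Phf6,RE9a* libraries (SD, n = 3), with an exact two-sided permutation p of 0.8, where 3 against 3 libraries cannot go below 0.1. These totals depend on the rule, which admits some genes through 1 group. All lincRNA rows, chosen by no count, held 0.785 to 0.924% against 0.826 to 0.910%. The small share of the 164 was concentrated in few genes. *Malat1* alone held 41.7% of the CPM of all 164, the 5 most abundant held 73.3% and the 20 most abundant 86.1%. Which genes filled the share differed between the groups. *Neat1* made up 9.87 to 13.5% of the lincRNA counts in *WT Phf6,RE9a* libraries against 3.04 to 4.51% in *VC Phf6,RE9a* libraries, while *Gm42047* made up 7.48 to 9.35% and 17.96 to 20.3%. In the plot of library shares the columns are of similar height and differ in their layers. Across the 164 genes, Pearson's r of log2(CPM + 1) was 0.948 to 0.980 between libraries of a group and 0.656 to 0.775 between groups. These correlations are across genes, which are not independent, and the rule itself admits genes read in one group only.

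**Figure D1:**
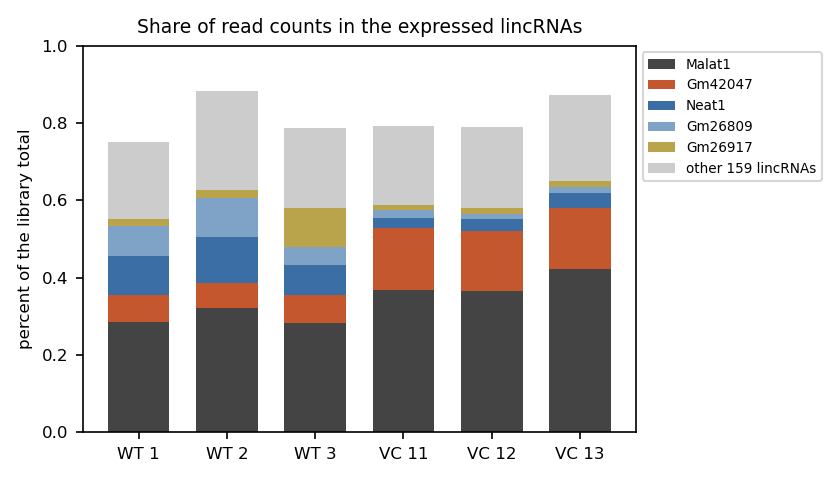
Percent of each library's total count that fell on the expressed lincRNAs (vertical axis, from 0), for the 3 *WT Phf6,RE9a* and 3 *VC Phf6,RE9a* libraries, with the 5 most abundant lincRNAs as layers and the other 159 in grey. Column heights run from 0.751% to 0.883%, and the *Neat1* and *Gm26809* layers are thinner and the *Gm42047* layer thicker in the *VC Phf6,RE9a* columns.

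The rule fixes part of the contrast. Of the 164 lincRNAs, 105 reached a mean count of 50 in both groups, 35 in *WT Phf6,RE9a* only and 24 in *VC Phf6,RE9a* only. The latter 59 were admitted through the group in which they were high, so their differences are given without a test. All 164 passed edgeR's filter on low counts. In the plot of group means, the 105 lie along the diagonal and the 59 lie in the bands beyond the threshold. Just inside the threshold were *Gm29340* (mean count 50 in *WT Phf6,RE9a*), *Gm26660* (50.3 in *WT Phf6,RE9a*) and *6030443J06Rik* (50.7 in *VC Phf6,RE9a*). Just outside were *Gm26779* (49.3 in *VC Phf6,RE9a*), *C530050E15Rik* (49.0 in *WT Phf6,RE9a*) and *Gm26518* (48.3 in *WT Phf6,RE9a*).

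**Figure D2:**
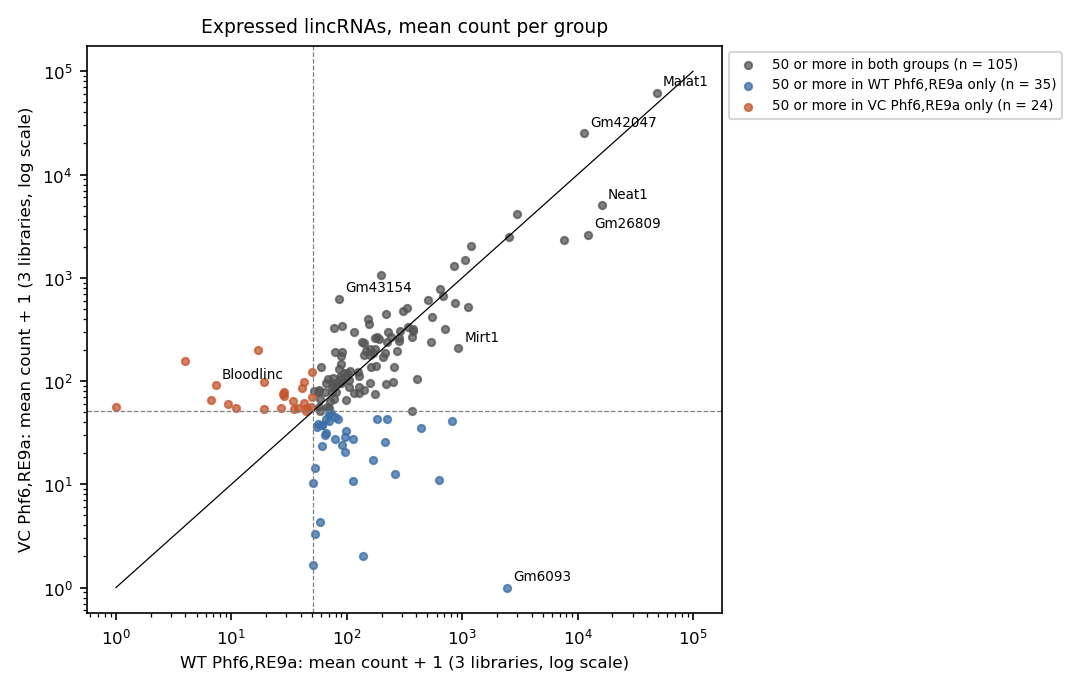
Mean count + 1 of each expressed lincRNA in *WT Phf6,RE9a* (horizontal) and *VC Phf6,RE9a* cells (vertical), both on log scales, with the diagonal of equal counts and dashed lines at the threshold of 50. The 105 genes read in both groups (grey) fill the upper right, and the 35 and 24 genes that reach 50 in one group only lie below and to the left of the dashed lines.

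Of the 105 lincRNAs read in both groups, 21 rose and 19 fell in *VC Phf6,RE9a* cells and 65 did not pass an adjusted p of 0.05 (edgeR's quasi-likelihood test, Benjamini-Hochberg adjustment over 14169 genes). These 40 calls are 38.1%, beside 44.2% of all genes tested (21.5% higher, 22.7% lower), 44.7% of all genes with a mean count of 50 in both groups and 45.9% of the protein-coding genes among them. The share of lincRNAs called was thus near that of other genes. The libraries of the groups did not overlap for 26 lincRNAs that were higher and 24 that were lower (47.6%, beside 60.2% of protein-coding genes). Calls of at least 2-fold were made for 10 increases and 13 decreases (21.9%, beside 21.4% of all genes tested and 13.5% of the protein-coding genes with a mean count of 50 in both groups). LincRNAs were read less deeply, with a median of the mean counts of 177 against 804 in protein-coding genes, a median level of 4.12 against 10.8 FPKM (the deposited measure per transcript length and library size) and a median standard error of 0.24 against 0.13 on the log2 scale. Their median log2 fold change was 0.027 and ran from -2.98 to 2.79. With 1 library left out at a time, the increases numbered 15 to 22 and the decreases 13 to 20, and without WT 3, in which ribosomal RNA rows were high, they numbered 19 and 20.

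A nuclear architectural transcript was the most abundant. *Malat1*, a nuclear-speckle RNA on chromosome 19 (5795690 to 5802672, minus strand, GRCm38), had 47936, 50272 and 47116 counts in *WT Phf6,RE9a* libraries against 60206, 58868 and 67893 in *VC Phf6,RE9a* libraries. All 3 *VC Phf6,RE9a* libraries lay above the others, but the log2 fold change of 0.23 (SE 0.13) did not pass the threshold (adjusted p = 0.180 by edgeR). *Malat1* also had the highest level per length, at 445 ± 40 FPKM in *WT Phf6,RE9a* cells and 519 ± 42 FPKM in *VC Phf6,RE9a* cells (SD, n = 3). *Neat1*, the scaffold of paraspeckles, lies beside it on the same strand (5824708 to 5845478). *Neat1* had 16970, 18724 and 12958 counts in *WT Phf6,RE9a* libraries against 3926, 4893 and 6314 in *VC Phf6,RE9a* libraries. Its groups stood far apart, and its level fell from 1052 ± 247 to 297 ± 72.5 CPM (log2 fold change -1.82, SE 0.23, adjusted p = 0.000674 by edgeR). Its nearest protein-coding gene, *Frmd8*, rose slightly (0.27, adjusted p = 0.032 by edgeR).

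Other scaffold transcripts had smaller changes than *Neat1*. *2900097C17Rik*, which RefSeq names *Norad*, a cytoplasmic RNA that binds Pumilio proteins, had 2463, 2468 and 2673 against 2510, 2605 and 2385 counts. After scaling, its level was 163 ± 3.93 and 147 ± 5.11 CPM, and the log2 fold change of -0.15 did not pass (adjusted p = 0.146 by edgeR). *1700020I14Rik*, which RefSeq names *Oip5os1* (Cyrano, known for promoting decay of a microRNA), had 2640, 3090 and 3259 against 3651, 4649 and 4231 counts. It rose by a log2 fold change of 0.35 (SE 0.12, adjusted p = 0.0419 by edgeR), but with WT 1, WT 3, VC 12 or VC 13 left out its adjusted p was 0.130, 0.0689, 0.145 and 0.116 in that order. *Pvt1*, transcribed downstream of the oncogene *Myc*, had 792, 657 and 1084 against 1321, 1139 and 1418 counts. Each *VC Phf6,RE9a* library was above each *WT Phf6,RE9a* library, and *Pvt1* rose by 0.50 (SE 0.16, adjusted p = 0.0337), beside a log2 fold change of 1.53 in *Myc*, which lies 47612 bases away on the same strand. Without WT 1, WT 2, VC 11 or VC 13, the adjusted p of *Pvt1* was 0.0975, 0.0772, 0.0918 and 0.110. Of the 7 nuclear and scaffold RNAs tested from a list of 13, 1 rose, 2 fell and 4 did not pass, beside the same shares of all genes given above. The other member of that list that fell was *Tug1*, annotated as antisense (-0.30, adjusted p = 0.037 by edgeR).

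The abundant lincRNAs that are known only by number included the clearest changes. *Gm42047* (chromosome 8, 121833247 to 121841178) had 11596, 10360 and 12280 counts in the libraries of *WT Phf6,RE9a* and 26136, 24912 and 25131 in those of *VC Phf6,RE9a* cells. Its level went from 733 ± 26.5 to 1496 ± 45.9 CPM, an increase of 1.03 on the log2 scale (SE 0.09, adjusted p = 0.000172 by edgeR). It lies within *Gm20388*, a protein-coding model on the same strand, so that reads over both rows could be counted for either. *Gm26809* (chromosome 6, 18844220 to 18847360) had 13245, 15805 and 7727 against 3361, 2231 and 2285 counts and fell by 2.37 on the log2 scale (SE 0.31, adjusted p = 0.000842). In *WT Phf6,RE9a* cells it was second to *Malat1* per length (267 FPKM), and in *VC Phf6,RE9a* cells it had 51.2 FPKM. *Gm20186*, a lincRNA that overlaps it on the opposite strand, fell with it, from 486, 462 and 258 counts to 128, 91 and 95 (log2 fold change -2.08, adjusted p = 0.00126). Whether the reads were counted by strand is not given in the sources used here, so the levels of this pair cannot be told apart. *Lsm8*, the protein-coding neighbour of both, rose (0.39, adjusted p = 0.041).

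The decrease of *Gm26917* (chromosome 17, 39843013 to 39846341) had 1 library behind its size. It was read 3172, 3164 and 16520 times in *WT Phf6,RE9a* libraries and 2106, 2379 and 2477 times in *VC Phf6,RE9a* libraries. WT 3 stood far above the rest. *Gm23935*, a ribosomal RNA row, was high in that library too, with 4355, 4237 and 16717 against 3837, 3322 and 3803 counts. Its log2 fold change of -1.29 did not pass (adjusted p = 0.0583 by edgeR). *CT010467.1*, another ribosomal RNA row, had 8841, 6282 and 10721 against 4800, 3797 and 3781 counts (-1.18, adjusted p = 0.00141). The mitochondrial rows *mt-Rnr1* and *mt-Rnr2* did not pass (adjusted p = 0.617 and 0.718). The part of ribosomal RNA in the value of *Gm26917*, with or without WT 3, was not tested. The log2 fold change of *Gm26917* was -1.79 (SE 0.59, adjusted p = 0.0396 by edgeR) and -0.63 (adjusted p = 0.00287) without WT 3. Without VC 11, VC 12 or VC 13, it did not pass (adjusted p = 0.112, 0.104 and 0.0858).

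*1700016F12Rik*, downstream of the annexin gene *Anxa3* on the same strand, had 1024, 1112 and 1416 against 2095, 1664 and 2315 counts. It rose by 0.65 (SE 0.15, adjusted p = 0.00951), beside an increase of 2.44 in *Anxa3*, which lies 3539 bases away. *1810058I24Rik* had 1079, 939 and 1151 against 1377, 1504 and 1531 counts and rose by 0.35 (SE 0.08, adjusted p = 0.012). The call of *1810058I24Rik* was lost without VC 13 (adjusted p = 0.058). RefSeq lists this gene as protein-coding, under the synonym *Stmp1*, a mitochondrial micropeptide gene. Of the 164 lincRNAs, 108 matched a RefSeq gene by name or synonym on the same chromosome. RefSeq called 96 of these lncRNA, 10 protein-coding and 2 pseudogenes, so that the label lincRNA does not hold in every annotation.

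The largest changes among lincRNAs read in both groups were 8 increases from 1.11 to 2.79 and 8 decreases from -1.38 to -2.98 on the log2 scale. The 2 largest of each with a matching RefSeq promoter were 5730460C07Rik and Mirt1, which fell, and Gm26802 and 5430401H09Rik, which rose. Their promoters, from 250 bases before to 50 after the RefSeq start on GRCm38.p6, are shown because these genes changed most, 5′ to 3′ on the gene's strand, with capitals on the motifs searched (TGTGGT for RUNX factors, CCGGAA for ETS factors, AGATAA for GATA factors, CACGTG for the E-box, TGACTCA for AP-1, TTGCGCA for C/EBP and TGACGT for the CRE, each on both strands).
5730460C07Rik: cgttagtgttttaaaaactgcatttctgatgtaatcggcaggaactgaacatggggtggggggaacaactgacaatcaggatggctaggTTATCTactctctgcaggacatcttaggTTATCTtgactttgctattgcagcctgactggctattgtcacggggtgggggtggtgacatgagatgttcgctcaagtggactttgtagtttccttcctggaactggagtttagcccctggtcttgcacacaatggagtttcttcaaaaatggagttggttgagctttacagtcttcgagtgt
Mirt1: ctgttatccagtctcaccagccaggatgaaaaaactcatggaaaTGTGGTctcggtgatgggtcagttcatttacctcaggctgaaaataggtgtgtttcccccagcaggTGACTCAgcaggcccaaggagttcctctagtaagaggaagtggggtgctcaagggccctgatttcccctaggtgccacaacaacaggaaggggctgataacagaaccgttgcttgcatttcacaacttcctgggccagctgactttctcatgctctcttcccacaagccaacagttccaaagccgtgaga
Gm26802: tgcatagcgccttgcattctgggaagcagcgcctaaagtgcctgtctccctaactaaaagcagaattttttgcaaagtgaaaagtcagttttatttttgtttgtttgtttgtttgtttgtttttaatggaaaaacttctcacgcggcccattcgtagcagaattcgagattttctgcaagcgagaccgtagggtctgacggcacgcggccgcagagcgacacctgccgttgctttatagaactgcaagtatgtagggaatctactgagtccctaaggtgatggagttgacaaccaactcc
5430401H09Rik: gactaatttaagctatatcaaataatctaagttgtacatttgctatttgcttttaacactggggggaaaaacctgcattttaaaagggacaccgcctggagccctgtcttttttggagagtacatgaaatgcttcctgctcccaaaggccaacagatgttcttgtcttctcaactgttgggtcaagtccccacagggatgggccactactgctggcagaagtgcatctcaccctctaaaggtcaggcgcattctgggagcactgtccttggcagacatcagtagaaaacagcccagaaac
The intervals were chr3:153792038-153792337, chr19:53464747-53465046, chr7:19300744-19301043 and chr12:32123743-32124042, all on the minus strand. A 5′ TOP-like start, a C within 3 bases of the RefSeq start followed by at least 5 pyrimidines on the gene's strand, was also searched and is not marked by capitals. The promoter of *Mirt1* holds the RUNX and AP-1 letters and a TOP-like start, that of *5730460C07Rik* holds the GATA letters at 2 places on its other strand, and the other two hold none of the motifs. A match is a description of these letters only. Of the 164 lincRNAs, 87 had a RefSeq promoter and 68 of these had it within 500 bases of the deposited start. Among the 68, the ETS letters stood in 25.0% (14.9% of 32851 RefSeq promoters of the same length), the CRE letters in 13.2% (7.51%), the RUNX letters in 11.8% (16.8%), the E-box in 10.3% (7.15%), the GATA letters in 8.82% (11.2%), the AP-1 letters in 7.35% (5.20%) the C/EBP letters in 0 of 68 (2.02%) and the TOP-like start in 16.2% (7.21%).

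*5730460C07Rik* (chromosome 3) had 392, 357 and 347 counts in *WT Phf6,RE9a* libraries against 47, 55 and 50 in *VC Phf6,RE9a* libraries. This was the largest decrease in this class, from 23.6 ± 2.30 to 2.98 ± 0.215 CPM (log2 fold change -2.98, SE 0.17, adjusted p = 3.16e-05 by edgeR). *Mirt1*, a lincRNA first described in infarcted heart, had 817, 1112 and 830 against 200, 286 and 141 counts. It fell by 2.28 on the log2 scale (SE 0.27, adjusted p = 0.000492). Inside *Mirt1*, on the opposite strand, lies *4833407H14Rik*, which reached 50 in *WT Phf6,RE9a* only, with 196, 305 and 167 against 34, 61 and 31 counts. *Mirt1* stood on a list of 13 immune and p53 lncRNAs, of which 3 were tested and 2 fell, beside 22.7% lower of all genes. The other that fell was *Lncpint*, below the threshold of 50, with 62, 37 and 41 against 12, 20 and 20 counts (-1.55, adjusted p = 0.00944 by edgeR). *Gdap10*, which overlaps *Nampt* on the same strand, had 152, 440 and 159 against 97, 78 and 115 counts. It fell by 1.53 (SE 0.46, adjusted p = 0.0295), while *Nampt*, an enzyme of NAD synthesis, fell by 0.84. Without VC 11, VC 12 or VC 13, the adjusted p of *Gdap10* was 0.0814, 0.0973 and 0.053, and without WT 2 its log2 fold change was -0.78. *Gm5547* had 213, 158 and 153 against 63, 84 and 73 counts and fell by 1.38 (adjusted p = 0.00239). *Dubr*, a lincRNA known from muscle differentiation and named here after its values were seen, had 622, 755 and 746 against 281, 323 and 354 counts and fell by 1.28 (SE 0.14, adjusted p = 0.000331).

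Among the increases, *Gm43154* (chromosome 6, 31605190 to 31798053) was the largest, with 65, 64 and 123 against 663, 404 and 819 counts. It rose by 2.79 (SE 0.33, adjusted p = 0.000518 by edgeR), and *Gm13848*, which overlaps it on the opposite strand and reached 50 in *VC Phf6,RE9a* only, had 11, 16 and 21 against 218, 142 and 232 counts. *Podxl*, 41209 bases away from *Gm43154*, was at 0.09 (adjusted p = 0.67). *Gm26802* had 195, 227 and 168 against 1176, 761 and 1229 counts and rose by 2.29 (SE 0.23, adjusted p = 0.000251). It lies 1926 bases from *Fosb*, an AP-1 subunit gene on the same strand, which fell by 1.53 (adjusted p = 0.0045). The lincRNA and its neighbour thus moved in opposite directions. *5430401H09Rik* had 67, 92 and 72 against 315, 406 and 265 counts and rose by 1.96 (SE 0.23, adjusted p = 0.000533). *1700063H04Rik* had 77, 62 and 131 against 355, 336 and 333 counts and rose by 1.81 (SE 0.24, adjusted p = 0.000922).

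*Gm32023* and *Gm49454* lie one after the other on chromosome 10 (67423994 to 67425251 and 67297406 to 67418927, plus strand). *Gm32023* had 99, 97 and 145 against 268, 266 and 363 counts (1.28, adjusted p = 0.00234) and *Gm49454* had 153, 138 and 169 against 317, 313 and 450 (1.11, adjusted p = 0.00251). *Egr2*, an immediate-early transcription factor gene 110224 bases from *Gm32023*, fell by 2.36 on the log2 scale. *Lockd*, transcribed downstream of the cell cycle inhibitor gene *Cdkn1b*, had 177, 88 and 192 against 362, 388 and 455 counts. *Lockd* rose by 1.29 (SE 0.26, adjusted p = 0.00555), whereas *Cdkn1b* was at -0.10 (adjusted p = 0.45). In the plot of the 16 largest changes no groups overlap, as the rule for naming these genes required.

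**Figure D3:**
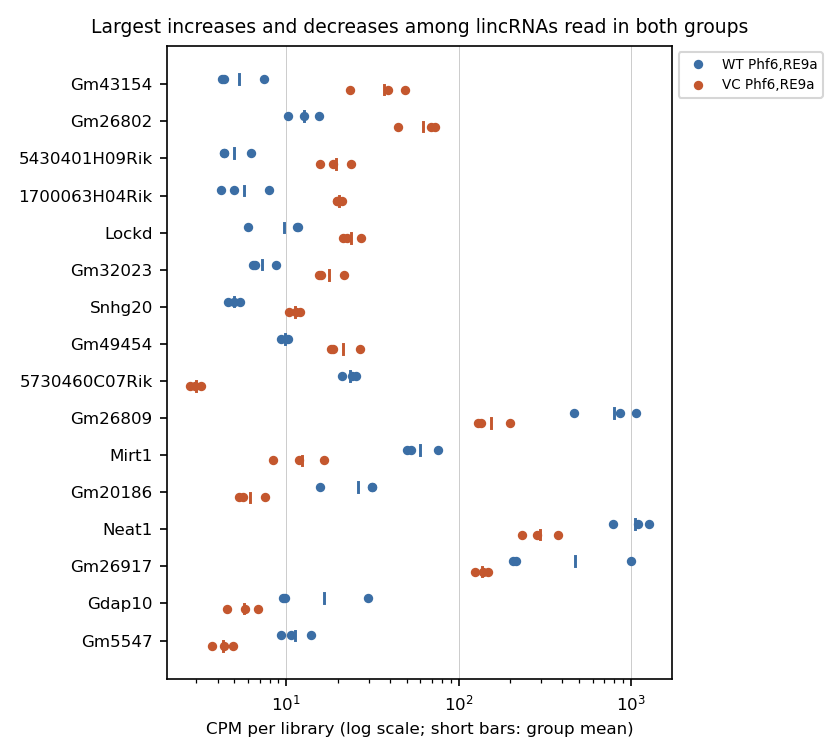
Level of the 8 lincRNAs with the largest increase (upper rows) and the 8 with the largest decrease (lower rows) among those read in both groups, in CPM per library on a log scale, with a point per library (3 per group) and a short bar at each group mean. The points of the groups are apart in every row, and the mean of *Gm26917* in *WT Phf6,RE9a* cells is drawn up by WT 3 (1000 CPM, against 206 and 215 CPM).

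The hosts of small nucleolar RNAs (snoRNAs) carry, in their introns, RNAs that guide the modification of ribosomal RNA. Of 15 hosts tested from a list of 21, 7 rose, 2 fell and 6 did not pass, beside 21.5% higher and 22.7% lower of all genes. Of these hosts, 4 were expressed lincRNAs and did not move together. *Snhg12* (chromosome 4, host of Snora16a, Snora44, Snora61 and Snord99) fell, with 908, 773 and 912 against 606, 504 and 587 counts (log2 fold change -0.74, SE 0.11, adjusted p = 0.00139 by edgeR). *Snhg20* rose, with 83, 73 and 76 against 176, 195 and 202 counts (1.17, SE 0.18, adjusted p = 0.00172). *Snhg6*, host of Snord87, rose with 334, 275 and 306 against 434, 551 and 439 counts (0.51, adjusted p = 0.0191), a call lost without WT 3 (adjusted p = 0.0503) or VC 12 (0.0775). *Epb41l4aos* had 281, 316 and 251 against 270, 213 and 246 counts, which overlap (-0.35, adjusted p = 0.143). The snoRNA rows inside *Snhg12* were at 0 in all libraries.

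Other lincRNAs give rise to microRNAs (miRNAs), which silence messenger RNAs through their seed. *Mir142hg* is the host of miR-142, abundant in blood cells, *Mir17hg* of the miR-17/92 cluster, a MYC target, and *Gm26532* begins 24 bases after miR-24-3p of the miR-23a, miR-27a and miR-24-2 cluster, on the same strand of chromosome 8. The mature sequences below (RefSeq, GRCm38.p6, 5′ to 3′) are shown because these rows lie over or just after their precursors, with the seed, bases 2 to 8, in capitals.
mmu-miR-142a-5p: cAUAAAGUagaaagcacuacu
mmu-miR-142a-3p: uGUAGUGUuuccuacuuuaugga
mmu-miR-17-5p: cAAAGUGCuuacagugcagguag
mmu-miR-20a-5p: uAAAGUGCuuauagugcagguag
mmu-miR-18a-5p: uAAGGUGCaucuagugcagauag
mmu-miR-19a-3p: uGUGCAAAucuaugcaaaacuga
mmu-miR-19b-3p: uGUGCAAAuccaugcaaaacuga
mmu-miR-92a-3p: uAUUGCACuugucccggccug
mmu-miR-23a-3p: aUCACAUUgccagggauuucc
mmu-miR-27a-3p: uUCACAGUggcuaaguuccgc
mmu-miR-24-3p: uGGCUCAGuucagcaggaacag
Of the *Mir17hg* products, miR-17-5p and miR-20a-5p share the seed AAAGUGC, and miR-19a-3p and miR-19b-3p share GUGCAAA. *Mir17hg* had 150, 109 and 284 counts in *WT Phf6,RE9a* libraries against 294, 236 and 273 in *VC Phf6,RE9a* libraries. The groups overlapped through WT 3, and the log2 fold change of 0.46 (SE 0.30, adjusted p = 0.251 by edgeR) passed only without WT 3 (0.87, adjusted p = 0.0154). *Mir142hg* had 389, 211 and 243 against 209, 267 and 304 counts (-0.24, adjusted p = 0.483), which overlap. *Gm26532*, named after its values were seen, had 1425, 1184 and 737 against 882, 397 and 288 counts. It fell by 1.24 (SE 0.43, adjusted p = 0.0478), although VC 11 lay above WT 3, and DESeq2 did not call it (adjusted p = 0.0822). The call of *Gm26532* was also lost without WT 1, WT 2, VC 12 or VC 13, and its log2 fold change ran from -1.84 to -0.95 with any 1 of the 6 libraries left out. Mature miRNAs were not analysed here. Of 5 miRNA hosts tested from a list of 13, 1 rose, 2 fell and 2 did not pass, beside 21.5% higher and 22.7% lower of all genes. The one that rose was *Lockd*, inside which the RefSeq table has no miRNA, and those that fell, *Mir22hg* and *Dleu2*, are not annotated as lincRNAs. *Ftx*, of the X inactivation centre and host of miR-374b and miR-421, was the only expressed lincRNA on chromosome X, with 115, 143 and 159 against 172, 181 and 185 counts (0.24, adjusted p = 0.308).

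Some lincRNAs, abundant or not, varied as much within a group as between groups. *Gm15675*, next to *Cd55*, had 400, 1149 and 484 against 705, 707 and 576 counts (-0.18, adjusted p = 0.73 by edgeR), and without WT 2 its log2 fold change was 0.49 (adjusted p = 0.0206). *AU020206* had 691, 438 and 800 against 818, 772 and 749 counts (0.16, adjusted p = 0.482). *3300005D01Rik* (38, 172 and 81 against 121, 124 and 84 counts) and *Gm26669* (73, 108 and 91 against 39, 143 and 118) had, beside *Gm26917*, the largest ratios of highest to lowest library within a group among the lincRNAs read in both groups. Their groups overlapped.

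Of the 35 lincRNAs that reached 50 in *WT Phf6,RE9a* only, the libraries of 30 did not overlap between the groups, and of the 24 that reached it in *VC Phf6,RE9a* only, those of 17 did not. The rule builds in this separation, and 57.3% of all genes tested were separated as well. *Gm6093* was the most abundant of the first class, with 1098, 5492 and 783 against 0, 0 and 0 counts, so that it was at least 927-fold lower in *VC Phf6,RE9a* cells against a floor of 3 counts per library, and at least 336-fold without WT 2. PCR reads carried no molecular identifiers here, so this floor and the interval given below cover counting error alone. *Gm33280* had 754, 951 and 726 against 35, 53 and 32 counts, and *D630033O11Rik* had 767, 634 and 477 against 8, 9 and 13. The neighbours of this pair differed little, with log2 fold changes of 0.02 in *Uggt1* and -0.30 in *Oaf* (adjusted p = 0.88 and 0.089 by edgeR). *AI504432* had 443, 315 and 562 against 31, 47 and 25 counts. It lies 1434 bases from *Kcna3*, a potassium channel gene of leukocytes on the same strand, which fell by 3.88 on the log2 scale. *Gm36723* had 330, 228 and 229 against 17, 12 and 6 counts, and its nearest protein-coding gene, *Id2*, an inhibitor of helix-loop-helix factors, fell by 2.58.

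The next genes of this class were chosen after their values were seen. *A230098N10Rik* had 104, 84 and 96 against 18, 16 and 25 counts and lies 4316 bases from *Il6*, an inflammatory cytokine gene, which fell by 5.13. *Gm11110* overlaps *Tnfsf9*, the gene of the 4-1BB ligand, on the opposite strand. *Gm11110* had 72, 142 and 70 against 26, 26 and 31 counts, and *Tnfsf9* fell by 2.54. *Gm26546* had 54, 59 and 42 against 4, 0 and 3 counts inside *Gnptab*, a gene of lysosomal enzyme targeting, which fell by 2.36. *1700021A07Rik* had 161, 91 and 163 against 3, 0 and 0 counts, a ratio of 151 (95% exact interval 51.3 to 735). *Redrum*, a lincRNA known from red cell maturation, had 249, 66 and 188 against 9, 39 and 1 counts, while all 4 erythroid marker genes rose in *VC Phf6,RE9a* cells. *4833445I07Rik*, around miR-191 and miR-425, had 67, 57 and 109 against 38, 57 and 37 counts.

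Among the lincRNAs that reached 50 in *VC Phf6,RE9a* only, *Gm13848*, described above with *Gm43154*, was the most abundant. *Gm28876* had 3, 3 and 3 against 122, 134 and 212 counts, 0.193 ± 0.011 against 9.20 ± 2.95 CPM. *Gm37233* had 45, 71 and 32 against 143, 137 and 86 counts, and *2700038G22Rik*, host of Snord93, had 29, 45 and 51 against 94, 82 and 112. *F730016J06Rik* had 12, 11 and 32 against 111, 91 and 90 counts. Its nearest protein-coding gene, *Fcnb*, a ficolin of maturing myeloid cells, rose by 2.61. *Bloodlinc* (chromosome 11, 102375549 to 102377020), a lincRNA transcribed beside the red cell anion exchanger gene *Slc4a1*, had 5, 2 and 12 against 93, 76 and 101 counts. *Slc4a1*, 9346 bases away on the same strand, rose by 3.12 (adjusted p = 0.00033 by edgeR), and the erythroid markers *Hba-a1* and *Klf1* had log2 fold changes of 2.36 and 1.27. The part of red cell precursors or their RNA in the level of *Bloodlinc* was not tested. *1700048O20Rik*, chosen after its values were seen, had no count in *WT Phf6,RE9a* libraries and 47, 62 and 56 in *VC Phf6,RE9a* libraries, at least 16.8-fold higher. *4632428C04Rik*, also chosen in this way, had 11, 6 and 8 against 49, 27 and 101 counts, whereas *Hes1*, a Notch target gene 42954 bases away, fell by 2.87.

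**Figure D4:**
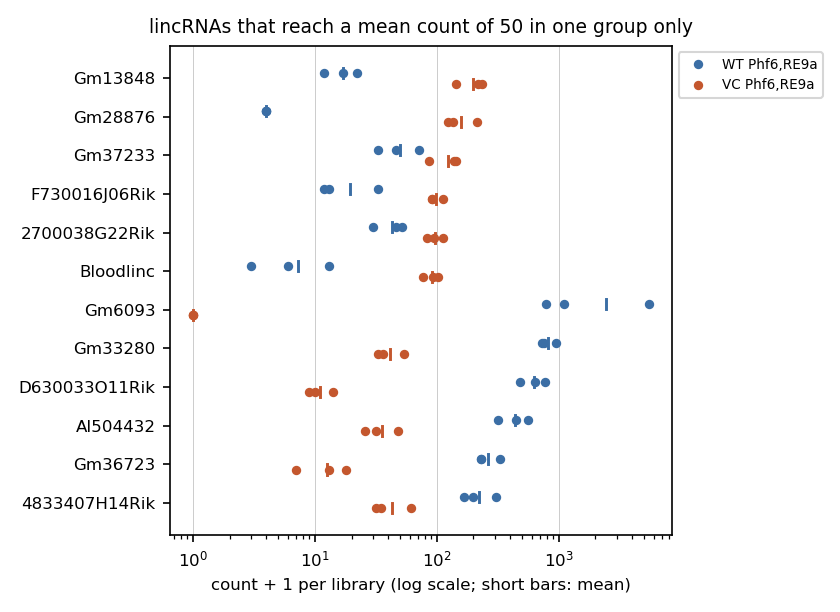
Count + 1 per library on a log scale for the 6 most abundant lincRNAs that reached a mean count of 50 in *VC Phf6,RE9a* cells only (upper rows) and in *WT Phf6,RE9a* cells only (lower rows), with a point per library and a short bar at each mean. The groups are apart in all 12 rows, as the rule favours, and *Gm6093* sits at 1 (a count of 0) in the *VC Phf6,RE9a* libraries.

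By position, the 164 lincRNAs lay on 20 chromosomes and had a median length of 2425 bases, with 19 genes of a single exon. A protein-coding gene overlapped 37 of them, and another 66 had one within 10000 bases. In 88 pairs with both genes tested, the log2 fold changes of lincRNA and nearest protein-coding gene had a Spearman correlation of 0.33 (Pearson 0.32). Their sign was the same in 56 pairs (63.6%). Protein-coding genes and their own nearest protein-coding neighbours gave 0.29 over 4284 pairs, with the same sign in 59.1%. LincRNAs over 10000 bases from their nearest protein-coding gene gave 0.14 over 47 pairs, with the same sign in 29 (61.7%). Of the 88 pairs, the 58 whose lincRNA was read in both groups gave 0.21 (Pearson 0.09, against 0.31 in the protein-coding pairs). The other 30 lincRNAs were admitted through the group in which they were high. The pairs were split by arrangement over all 88, which include these 30 lincRNAs, and not without them. Over all 88, the Spearman correlation varied with arrangement. In 21 pairs that overlapped on opposite strands it was 0.66, with the same sign in 19, in 9 convergent pairs that did not overlap 0.53, with the same sign in 5, in 36 pairs on the same strand 0.37, and in 22 divergent pairs 0.13. The protein-coding pairs were not split by arrangement, so these values have no like pairs beside them. Without overlapping pairs the correlation was 0.20 (n = 58). The pairs share their libraries, and overlapping genes may share reads. In the plot of neighbours, most pairs lie near the origin, and *AI504432*, *A230098N10Rik*, *Gm26546* and *Bloodlinc* lie far out along the direction in which both genes changed alike. All of these named lincRNAs are among the 30 admitted through the group in which they were high, so the rule favours their large fold changes. *A230098N10Rik* and *Gm26546* were also chosen after their values were seen.

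**Figure D5:**
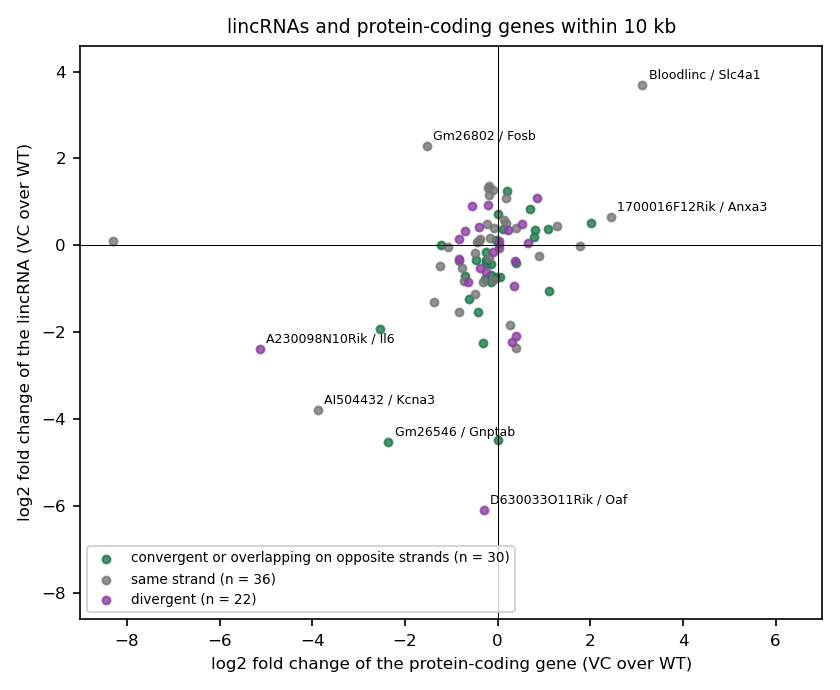
Log2 fold change (VC over WT) of the protein-coding gene (horizontal) and of the lincRNA (vertical) for 88 pairs within 10000 bases, with a point per pair coloured by arrangement. *AI504432* with *Kcna3*, *A230098N10Rik* with *Il6* and *Gm26546* with *Gnptab* lie at the lower left, *Bloodlinc* with *Slc4a1* at the upper right, and *Gm26802* with *Fosb* at the upper left. Of these lincRNAs, all but *Gm26802* were admitted through the group in which they were high, so the rule favours their large fold changes.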

How the data were processed

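RNA of sorted GFP+ leukemia cells was extracted with Trizol and prepared with an Illumina TruSeq kit. The submitters' processing notes list Bowtie 0.12.0 and mm8, but the deposited coordinates equal those of GENCODE M21 (GRCm38) for 98.3% of 54495 matched genes (158 of the 164 lincRNAs). The counting tool, annotation release and strandedness are not given in the sources used here. The authors deposited raw read counts per gene and FPKM values, which they scaled by gene length and library size. Their own fold changes and p-values were not used.

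After filterByExpr and TMM scaling, the groups were compared by the quasi-likelihood test of edgeR 4.0.16 (R 4.3.3), with Benjamini-Hochberg adjustment over 14169 genes, after tests on simulated data. Standard errors are the log2 fold change over the square root of F. Shares were compared with exact permutation tests (scipy 1.17.1). The labels do not say that libraries came from separate mice, so p-values measure only the spread between these samples.

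The lincRNAs, lists and rules were chosen with earlier results of these data known. Named genes were list members, the 10 most abundant, the 8 largest increases and decreases with groups apart, the 6 most abundant of each group that reached 50 alone, those beside the threshold, the 4 most abundant not called, the 6 most abundant with a protein-coding gene within 5000 bases, and the 3 most variable. Alternatives were DESeq2 1.42.0, RLE scaling, other filters and thresholds, limma 3.58.1 on log2(FPKM + 1), and each library left out. A marker gene of the design is not reported here.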

Additional observations from a re-analysis of the deposited data

How the results depend on the processing

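No paired analysis was possible because the groups share no replicate number. Under DESeq2, RLE scaling, other count filters and limma on log2(FPKM + 1), the lincRNAs read in both groups gave 20 to 22 increases and 17 to 20 decreases. Among these lincRNAs, a 2-fold minimum left 10 increases (all genes: 1410 higher, 1625 lower), and an adjusted p under 0.01 left 13 and 12 (all genes: 1690 and 2110). A mean of 20 in both groups gave 26 increases and 36 decreases of 186 lincRNAs, and 100 gave 14 and 12 of 58. A mean of 50 over all 6 libraries gave 28 and 39 of 139. These 139 also hold lincRNAs that reached 50 in 1 group only, such as *Gm6093*, whose difference the rule builds in. The 28 and 39 are therefore no check on the calls among lincRNAs read in both groups. The 17 lincRNAs with no other gene within 5000 bases gave 5 increases, 2 decreases and a median of 0.22. With 1 library left out, the median ran from -0.060 to 0.064, the increases over all genes from 2179 to 3132 and the decreases from 2511 to 3338. Of the 40 calls, 25 were kept in all 6 such fits. The difference in share (0.011 points) was -0.079 without *Malat1* (exact permutation p = 0.1), -0.073 on the TMM-scaled size (exact permutation p = 0.3) and -0.017 to 0.049 with 1 library left out. The neighbour correlation was 0.29 up to 100000 bases (129 pairs), 0.20 without overlapping pairs, and 0.31 to 0.35 with 1 library left out. Among 45 named lincRNAs, 281 of 310 values under other settings counted as unchanged. For lincRNAs read in both groups, this meant the same direction and call. Those that reached 50 in 1 group only had no call. Their log2 fold change had to keep its direction and move by less than the SD within groups. Under the 2-fold minimum and the adjusted p under 0.01 it is the same value by construction. LincRNAs read in both groups that were not called could not change under these stricter thresholds either. With 1 library left out, 238 of 270 values counted as unchanged. Of the others, 17 lost their call, 1 gained a call, 3 moved by the SD or more and 11 changed direction. *Gm26669* (0.007) turned to -0.0017 by DESeq2, -0.0046 by RLE scaling and -0.090 by limma. With 1 library left out, *Gm26669* ran from -0.33 to 0.40, *3300005D01Rik* from -0.36 to 0.79, *AU020206* from -0.032 to 0.29, *Mir142hg* from -0.39 to 0.072 and *Gm15675* from -0.46 to 0.49. The cause was not tested. As a set, lincRNAs read in both groups had lower counts and larger standard errors than protein-coding genes. The counts of overlapping genes remain uncertain.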
